A study of Mus musculus with 6 samples.

Results

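Fatty acids reach the inside of a fat cell in 3 steps, and 10 genes of these steps were examined here in mature adipocytes (AC) and in dedifferentiated fat (DFAT) cells. The genes were listed by name as Cd36, Slc27a1 and Slc27a4 for uptake, Fabp3, Fabp4 and Fabp5 for binding, and Acsl1, Acsl3, Acsl4 and Acsl5 for activation. A gene was measured where the platform annotation gave a probe set that symbol alone, which held for 9 of the 10 genes through 21 probe sets, out of 18193 genes in all. No probe set was assigned to Acsl1, which was therefore not analysed here. Affymetrix GeneChip arrays for the mouse genome gave the values, with 3 arrays for each kind of cell. AC were primary mature adipocytes isolated from mouse fat tissue. DFAT cells were a preadipocyte line raised by ceiling culture, in which floating lipid-filled adipocytes attach and lose their lipid, from adipocytes of GFP transgenic mice. The study gives growth to semiconfluence for cultures to be differentiated, and no density for the cells on the arrays. The strain and the age of the mice are not given in the sources used here, and GFP transgenic mice are named for the DFAT line and not for AC.

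CD36 is a membrane glycoprotein that binds long-chain fatty acids and assists their entry. The fatty acid transport proteins encoded by Slc27a genes also carry an acyl-CoA synthetase activity, so that uptake and activation are linked. Inside the cell, small fatty acid binding proteins (Fabp genes) hold the insoluble fatty acid in solution. The long-chain acyl-CoA synthetases (Acsl genes) then join it to coenzyme A, after which it can be stored in triglyceride, placed in membranes or oxidized. CD36, FABP4 and ACSL1 are abundant in white fat, where PPARγ drives many of these genes.

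Between AC and DFAT cells, the measured genes did not all move in the same direction, and Acsl1 of the activation step is not among them. Of the 9 measured genes, 5 were lower in DFAT cells, 2 were higher and 2 did not pass the test (limma, adjusted p under 0.05 over all probe sets), where the probe set that was brightest on average represented its gene. Over all genes, 23.8% were lower and 22.6% were higher by the same rule. Cd36 and Slc27a1 fell to the level of background signal. Fabp4 fell, staying far above background on 2 of 4 probe sets. Its fall was 7.53-fold on a probe set near the top of the signal range in AC, and 5.55-fold to at least 24.4-fold on the others. Fabp5 fell 1.60-fold and Acsl5 rose 1.99-fold. Fabp3, the other gene called lower, was at background level in both groups. Acsl4 rose 2.44-fold on a probe set where AC replicate 1 was low, and 1.66-fold on another. Its remaining probe set did not pass the test, and the call at 2.44-fold was lost without any one of the DFAT arrays. Slc27a4 and Acsl3 did not pass the test. Among the 9 genes, 3 were at least 4-fold lower, against 6.65% of all genes, and none was at least 4-fold higher. The median log2 difference of the 9 genes was -0.68, and that of all genes was -0.10.
Counted by probe set, 12 of 21 were lower and 4 were higher, where 18.1% and 20.3% of all probe sets were. The scale of these differences is that of the deposited RMA values. Centring the arrays on 12 reference genes moved the median difference of all probe sets from -0.06 to -0.46 on the log2 scale, and centring on the hybridization controls moved it to 0.40. With the reference genes Acsl4 no longer passed the test, and with the hybridization controls neither Fabp3 nor Fabp5 did. In a bulk RNA sample, fewer cells of a type and less RNA per cell cannot be told apart.

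**Figure D1:**
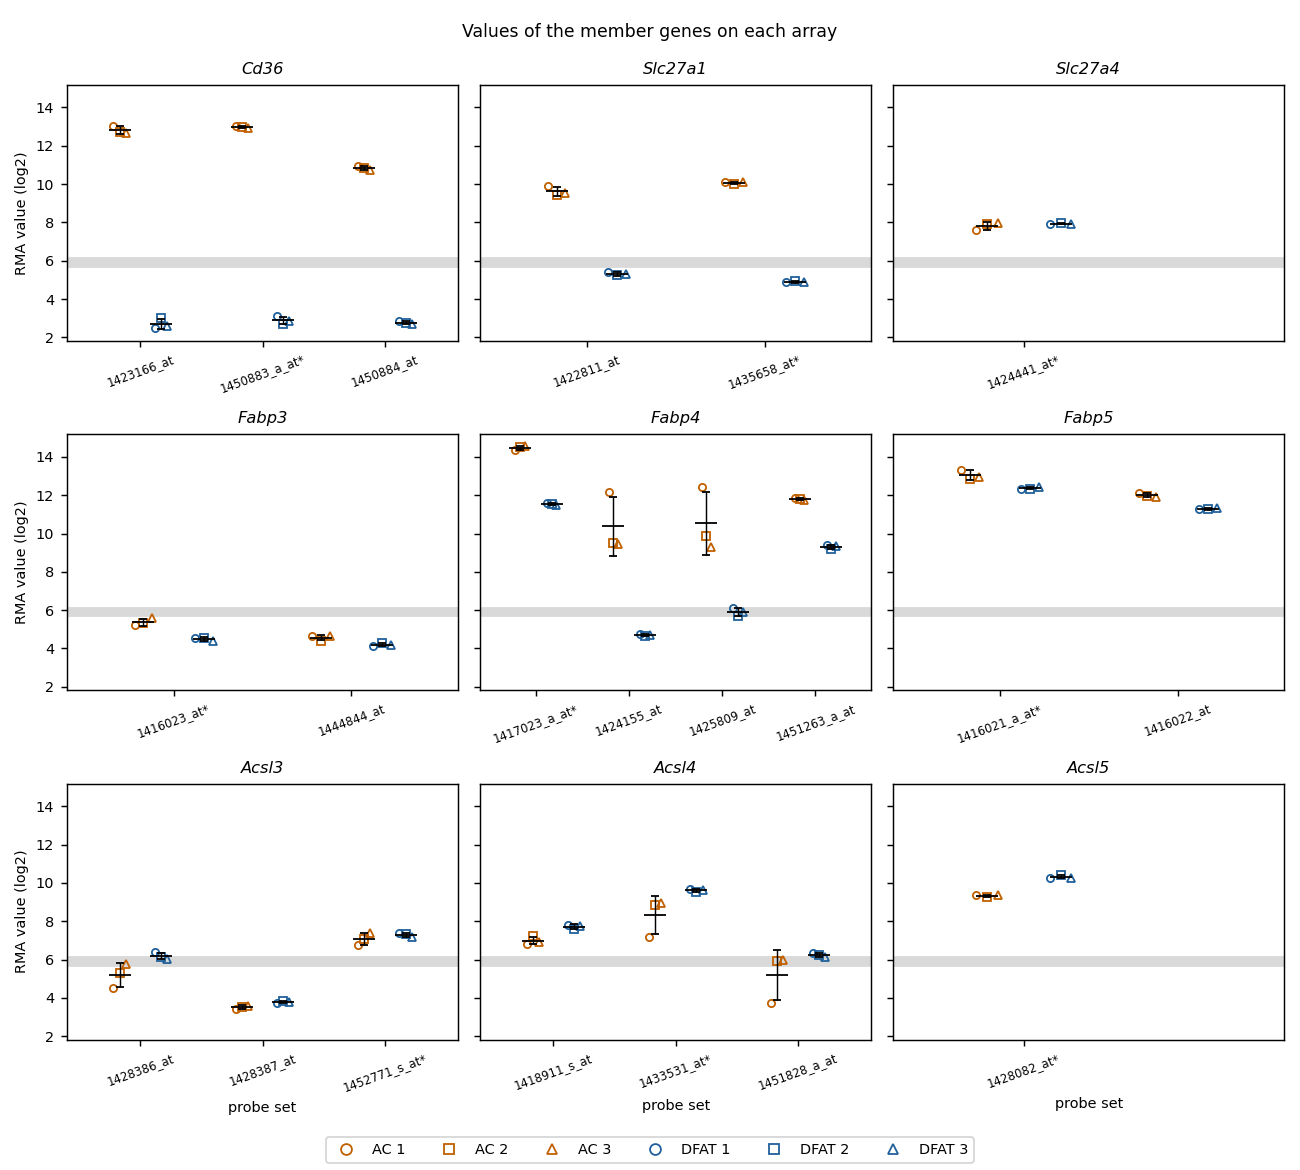
Log2 RMA values of 21 probe sets from the 9 measured genes on the 3 AC arrays (orange) and the 3 DFAT arrays (blue), with the mean and SD of each group in black and an asterisk at the probe set that stands for its gene. The background levels of the arrays, 5.67 to 6.13, form the grey band, into or below which Cd36 and Slc27a1 drop in DFAT cells. Fabp4, Fabp5, Slc27a4, Acsl3, Acsl4 and Acsl5 keep probe sets above the band in both groups.

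The 6 arrays had medians between 4.92 and 5.11 on the log2 scale. AC replicate 1 stood apart, as Pearson's r across probe sets was 0.969 to 0.971 between its array and the other AC arrays, 0.991 between the latter, and 0.995 to 0.996 among DFAT arrays. On that array the mean of 18 endothelial markers was 9.60, against 7.81 and 7.74 on the other AC arrays, and the mean of 18 macrophage markers was 6.23, against 7.94 and 8.05. As a check of the labels, all 16 measured adipocyte markers were lower in DFAT cells, 12 of them at background level there, and all 11 measured cell cycle genes were higher. Eye, ear and sperm genes, 81 in number with 110 probe sets, set the background level of an array as their 95th percentile, and a probe set was at background level in a group when no array of the group exceeded it. This held for 43.1% of all genes in AC and for 45.7% in DFAT cells. The study speaks of biological replicates and does not name the animals or cultures behind each array, so the p-values reflect the spread between these arrays alone.

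The stretch of 250 bases before the transcription start is shown for 4 genes of uptake and activation that differ in their response, namely Cd36 and Slc27a1, which fell, Slc27a4, which did not pass the test, and Acsl4, which rose. The sequences are those of RefSeq on build GRCm38.p6, 5′ to 3′ on the strand of the gene. Of the 10 genes, 8 have such a sequence in the table used here, and Fabp4 and Fabp5 are without one. A search on both strands covered AGGTCA, the repeat unit in sites of nuclear receptors such as PPARγ, and TTGCNNAA, a core of the C/EBP motif. It also covered the CCAAT box, the GC box with its letters GGGCGG, and the TATA box as TATAAA. Matches are in capitals and may overlap. The windows lie at chr5:17835897-17836146 (minus strand) for Cd36, chr8:71568621-71568870 (plus strand) for Slc27a1, the most upstream of its 3 annotated starts, chr2:29802384-29802633 (plus strand) for Slc27a4 and chrX:142390536-142390785 (minus strand) for Acsl4.
Cd36: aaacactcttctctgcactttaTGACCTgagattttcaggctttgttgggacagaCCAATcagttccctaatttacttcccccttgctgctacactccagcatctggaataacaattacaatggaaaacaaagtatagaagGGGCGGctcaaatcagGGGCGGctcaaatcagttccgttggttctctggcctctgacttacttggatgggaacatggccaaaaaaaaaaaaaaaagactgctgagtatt
Slc27a1: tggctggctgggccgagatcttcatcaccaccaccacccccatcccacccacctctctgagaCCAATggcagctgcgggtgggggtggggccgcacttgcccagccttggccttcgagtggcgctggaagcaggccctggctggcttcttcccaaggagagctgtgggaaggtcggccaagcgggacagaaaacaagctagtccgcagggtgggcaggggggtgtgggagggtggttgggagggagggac
Slc27a4: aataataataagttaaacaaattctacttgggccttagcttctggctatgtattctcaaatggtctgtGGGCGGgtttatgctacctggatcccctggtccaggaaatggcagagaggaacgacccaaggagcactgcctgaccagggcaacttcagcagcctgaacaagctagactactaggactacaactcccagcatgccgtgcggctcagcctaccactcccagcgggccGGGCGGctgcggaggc
Acsl4: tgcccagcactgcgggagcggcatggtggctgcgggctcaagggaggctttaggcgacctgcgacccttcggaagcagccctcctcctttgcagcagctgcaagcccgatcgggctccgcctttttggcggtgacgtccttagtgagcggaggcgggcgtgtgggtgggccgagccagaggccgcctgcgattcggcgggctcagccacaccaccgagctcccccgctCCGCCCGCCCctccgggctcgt
The window of Cd36 held 1 AGGTCA, on the opposite strand 228 bases before the start, 1 CCAAT and 2 GC boxes, and its share of C and G was 43.2%. None of the windows of Slc27a1, Slc27a4, Acsl3, Acsl4, Acsl5 and Fabp3 held AGGTCA, and no window of a measured gene held TTGCNNAA or TATAAA. Over the 32851 windows of the table, 14.0% held AGGTCA, 9.56% TTGCNNAA, 33.8% CCAAT, 32.7% GGGCGG and 12.4% TATAAA. The share of C and G was 66.4% in the window shown for Slc27a1, 54.4% for Slc27a4 and 70.8% for Acsl4, where the median of all windows was 52.4%. Acsl4 had 2 overlapping GC boxes, 22 and 18 bases before the start, and Slc27a4 had 2 at 182 and 16 bases. The window shown for Slc27a1 had no GC box. Those at its downstream starts had 1 and 3, with shares of C and G of 60.8% and 58.4%. These matches describe the letters only.

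Cd36 had the second largest fall among all 18193 genes, although neither its size nor its rank is exact, since the DFAT value lay in the background. On its brightest probe set (1450883_a_at) the AC arrays had log2 values of 13.05, 12.96 and 12.92, and the DFAT arrays had 3.09, 2.71 and 2.87. The groups lay far apart, and each DFAT array was below its background level. The log2 difference was -10.09 (95% confidence interval -10.42 to -9.75, adjusted p = 2.53e-08 from limma). With DFAT values set to the background level, Cd36 was at least 149-fold lower in DFAT cells. The other probe sets of Cd36 behaved alike, with differences of -10.11 on 1423166_at and -8.09 on 1450884_at and an adjusted p of 4.15e-08 and 3.05e-08 from limma. On 1450884_at the AC values were 10.94, 10.84 and 10.76, and the bound was at least 34.0-fold.
Slc27a1 encodes FATP1, the fatty acid transport protein of adipocytes and muscle that responds to insulin. On 1435658_at the AC arrays had log2 values of 10.10, 9.99 and 10.10 and the DFAT arrays had 4.90, 4.95 and 4.87. All DFAT values were under the background level, and the difference was -5.16 (95% confidence interval -5.44 to -4.88, adjusted p = 8.79e-08 from limma), or at least 19.7-fold against that level. The other probe set, 1422811_at, had 9.89, 9.43 and 9.55 in AC but 5.41, 5.24 and 5.29 in DFAT cells, a difference of -4.31 (adjusted p = 5.01e-07 from limma), or at least 14.5-fold against the background level in which the DFAT values lay. The call on 1435658_at held under each of the alternatives run, and that on 1422811_at without any one array.
Slc27a4 encodes FATP4, the broadly expressed member of the same family. Its only probe set, 1424441_at, had 7.60, 7.91 and 7.98 in AC against 7.91, 7.98 and 7.93 in DFAT cells, all above background. The groups overlapped, and the lowest value was on the array of AC replicate 1. The difference was 0.11 with a 95% confidence interval of -0.22 to 0.45 (adjusted p = 0.589 from limma). Centring on reference genes gave -0.28, hybridization controls gave 0.58, and leaving out AC replicate 1 gave -0.0036, none of which passed the test. Within each array, the log2 value of Slc27a1 minus that of Slc27a4 moved by -5.27 between AC and DFAT cells, from 2.23 ± 0.24 to -3.04 ± 0.03 (SD, n = 3 each), where Slc27a1 was at background level in DFAT cells.

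**Figure D2:**
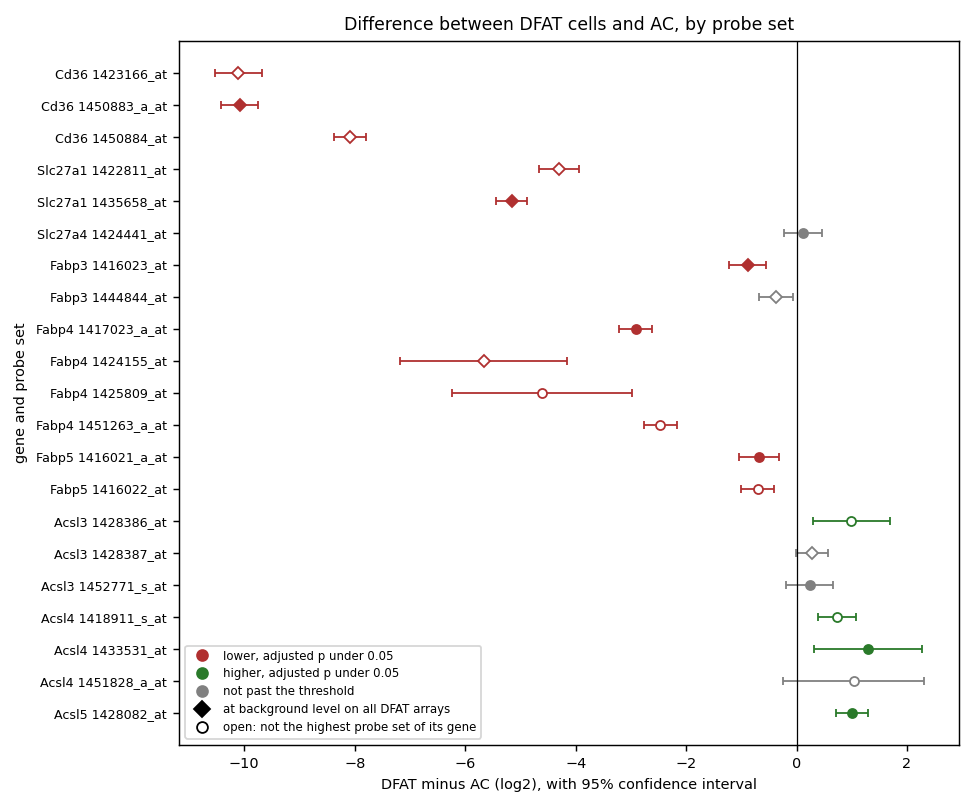
Log2 difference between DFAT cells and AC for each probe set, with the 95% confidence interval of the linear model. All probe sets of Cd36, Slc27a1, Fabp4 and Fabp5 lie to the left of 0 and those of Acsl4 and Acsl5 to the right, and the widest intervals are those of 2 Fabp4 and 2 Acsl4 probe sets.

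Fabp4 encodes the adipocyte fatty acid binding protein, among the most abundant cytosolic proteins of fat cells. On 1417023_a_at it had log2 values of 14.34, 14.51 and 14.54 in AC but 11.62, 11.53 and 11.51 in DFAT cells. The AC values were close to the highest of any probe set on these arrays (14.56, 14.61 and 14.57), and the DFAT values were far above background. The difference was -2.91 (95% confidence interval -3.21 to -2.62, adjusted p = 1.21e-06 from limma), a 7.53-fold fall. A second probe set, 1451263_a_at, fell from 11.79 ± 0.06 to 9.31 ± 0.11 (SD, n = 3 each), a log2 difference of -2.47, with no value near the top of the range.
The remaining Fabp4 probe sets fell further. On 1424155_at the AC values were 12.17, 9.50 and 9.45 and the DFAT values 4.76, 4.66 and 4.69, all of the latter at background level, a difference of -5.67 (adjusted p = 0.000257 from limma). On 1425809_at the AC values were 12.42, 9.87 and 9.29 and the DFAT values 6.11, 5.71 and 5.92, a difference of -4.61 (adjusted p = 0.00118 from limma). On both, the array of AC replicate 1 stood more than 2 log2 units above the other AC arrays, which was not the case on the first 2 probe sets. Without that array the differences were -4.77 and -3.67. The transcripts that each Fabp4 probe set measures are not given in the sources used here, and the size of its fall thus differed between probe sets, from 5.55-fold on 1451263_a_at to at least 24.4-fold on 1424155_at, or at least 13.1-fold there without AC replicate 1.
Fabp5 encodes the epidermal fatty acid binding protein, which adipocytes carry beside FABP4 and which is also found in macrophages, endothelium and keratinocytes. On 1416021_a_at its log2 values were 13.32, 12.87 and 12.97 in AC against 12.34, 12.33 and 12.45 in DFAT cells. The groups did not overlap, but the fall was small, at a log2 difference of -0.68 (95% confidence interval -1.04 to -0.32, adjusted p = 0.00961 from limma). The other probe set, 1416022_at, gave -0.71 (adjusted p = 0.00283 from limma). Centred on the hybridization controls the difference of Fabp5 was -0.22 (adjusted p = 0.461 from limma).
Fabp3 encodes the binding protein of heart and skeletal muscle, which is also found in brown fat. Its values on 1416023_at were 5.24, 5.31 and 5.57 in AC against 4.56, 4.52 and 4.38 in DFAT cells, at background level in both groups. The difference of -0.89 passed the test (adjusted p = 0.00168 from limma), but it hardly measures a change above background. A floor at the background level replaced each value of this probe set by the level of its array. The difference of -0.23 (adjusted p = 0.0618 from limma) found with that floor is therefore one of background levels and holds no signal of Fabp3. With the 90th percentile as the background level, Fabp3 was above the level on AC replicate 3. The second probe set did not pass the test, at a difference of -0.37 (adjusted p = 0.0596 from limma). Of 12 skeletal muscle markers, 11 were at background level in both groups, and so were 4 of 6 brown fat markers, among them Ucp1, while Cox8b and Cox7a1 were above background in AC alone.

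Acsl5 encodes a long-chain acyl-CoA synthetase of mitochondria and endoplasmic reticulum, known best from intestine and liver. On 1428082_at, its only probe set, it had log2 values of 9.36, 9.26 and 9.35 in AC against 10.27, 10.42 and 10.26 in DFAT cells. The arrays of each group were close together and the groups did not overlap. The difference was 0.995 (95% confidence interval 0.71 to 1.28, adjusted p = 0.000414 from limma), and centring the arrays on reference genes or hybridization controls gave 0.60 or 1.46.
Acsl4 encodes the synthetase with a preference for arachidonic acid, which places polyunsaturated fatty acids in membrane phospholipids. On 1433531_at the values were 7.20, 8.83 and 8.95 in AC against 9.70, 9.53 and 9.62 in DFAT cells. Each DFAT array was above each AC array, while the array of AC replicate 1 was lower than the other AC arrays by more than 1.6 log2 units. The difference was 1.29 (95% confidence interval 0.31 to 2.26, adjusted p = 0.0437 from limma). Without AC replicate 1 it was 0.72 (adjusted p = 0.00152 from limma), and without any one of the DFAT arrays the call was lost, with an adjusted p of 0.0968 to 0.125 from limma. On 1418911_s_at, where AC replicate 1 did not stand apart, the values were 6.83, 7.22 and 6.92 in AC against 7.83, 7.61 and 7.73 in DFAT cells, a difference of 0.73 (adjusted p = 0.00593 from limma). The remaining probe set, 1451828_a_at, had 3.71, 5.94 and 5.96 in AC against 6.34, 6.26 and 6.11 in DFAT cells and did not pass the test, at a difference of 1.03 (adjusted p = 0.183 from limma).
Acsl3 encodes the synthetase found on endoplasmic reticulum and on nascent lipid droplets. On 1452771_s_at the values were 6.75, 7.06 and 7.40 in AC against 7.39, 7.34 and 7.18 in DFAT cells, and the groups overlapped. The difference of 0.24 did not pass the test (95% confidence interval -0.19 to 0.66, adjusted p = 0.361 from limma), and centring on reference genes gave -0.16 and hybridization controls gave 0.70, neither of which passed the test. On 1428386_at the AC arrays were at background level, at 4.50, 5.29 and 5.79, and the DFAT arrays just above it, at 6.38, 6.12 and 6.04, a difference of 0.99 (adjusted p = 0.0332 from limma) that came to 1.14-fold against the background level. That call was lost without AC replicate 2 or any one of the DFAT arrays, with an adjusted p of 0.0676 to 0.118 from limma. The remaining probe set was at background level in both groups. Probe sets ending in _s_at may also match other transcripts.

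To ask whether genes of a family changed unequally, the within-array difference of each of 7 pairs was compared between the groups by an exact two-sided permutation test over the 6 arrays, which cannot go below p = 0.1. In 5 of the 7 pairs the groups did not overlap (exact permutation p = 0.1, adjusted p = 0.14 over the 7 pairs), so none could pass the threshold. How often the groups lie apart for pairs of other genes was not determined, so the count describes these 7 pairs only. Fabp4 minus Fabp5 was 1.02, 1.64 and 1.57 in the AC replicates and -0.72, -0.80 and -0.94 in the DFAT replicates, and thus moved by -2.23 on the log2 scale. Fabp3 minus Fabp4 moved by 2.03, with Fabp3 at background level, and Fabp3 minus Fabp5 by -0.21 with overlapping groups (exact permutation p = 0.5). Among the synthetases, Acsl3 minus Acsl4 moved by -1.05 and Acsl3 minus Acsl5 by -0.76, but with the Acsl3 probe set 1428386_at these values were -0.30 and -0.0046. Acsl4 minus Acsl5 moved by 0.29, and by -0.29 without AC replicate 1. The difference between Slc27a1 and Slc27a4 and that between Fabp4 and Fabp5 do not depend on how arrays are centred, since a shift of the whole array cancels within it.

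**Figure D3:**
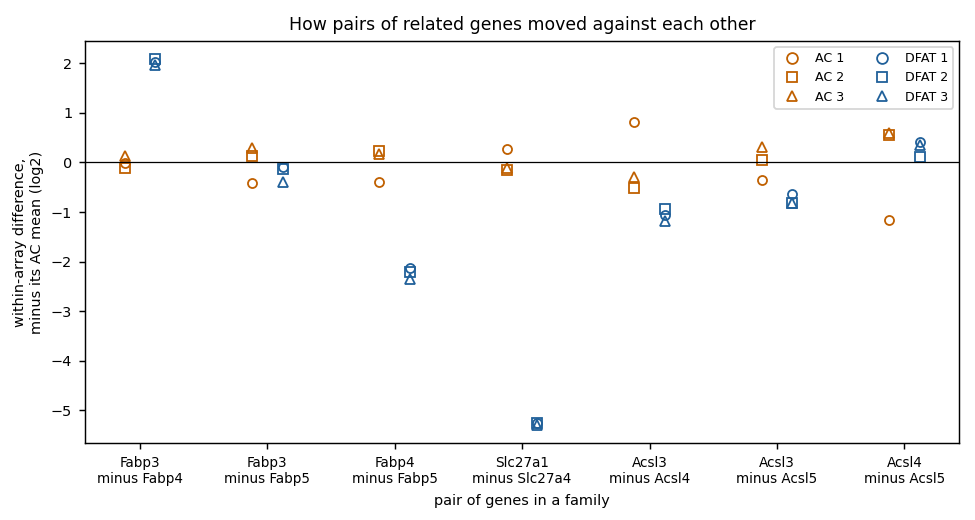
Within-array difference of log2 values for the 7 pairs of related genes, with the AC mean of each pair set to 0. Slc27a1 against Slc27a4 moved by -5.27 on the log2 scale, and by -4.42 with the background level as a floor, since Slc27a1 was at that level in DFAT cells. Fabp4 against Fabp5 moved by -2.23.

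Cells other than adipocytes in a fat preparation also carry some of these genes, CD36 and FABP4 in capillary endothelium and in macrophages and ACSL4 in macrophages. All 18 endothelial markers were lower in DFAT cells, with a mean of 7.74 to 9.60 over the AC arrays against 4.51 to 4.52 in DFAT cells, where 13 of the 18 were at background level, among them Pecam1 and Cdh5. Of 18 macrophage markers 15 were lower, with a mean of 6.23 to 8.05 over the AC arrays against 4.48 to 4.53 in DFAT cells, where 14 were at background level, among them Adgre1 and Cd68. Of 14 epithelial and mammary markers 12 were lower, with a mean of 8.61 to 9.30 in AC against 4.52 to 4.67 in DFAT cells. On the array of AC replicate 1, the Fabp4 probe sets 1424155_at and 1425809_at were high together with the endothelial markers, and Acsl4 on 1433531_at and 1451828_a_at was low together with the macrophage markers. The mean of the epithelial and mammary markers was also highest on that array, at 9.30 against 8.65 and 8.61. Acsl3 on 1452771_s_at was lowest there, at 6.75 against 7.06 and 7.40. The part of cells other than adipocytes in the differences was not tested. Without that array the log2 differences were -10.05 for Cd36, -5.14 for Slc27a1, -2.97 for Fabp4, -0.55 for Fabp5 and 1.01 for Acsl5, and all passed the test.

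**Figure D4:**
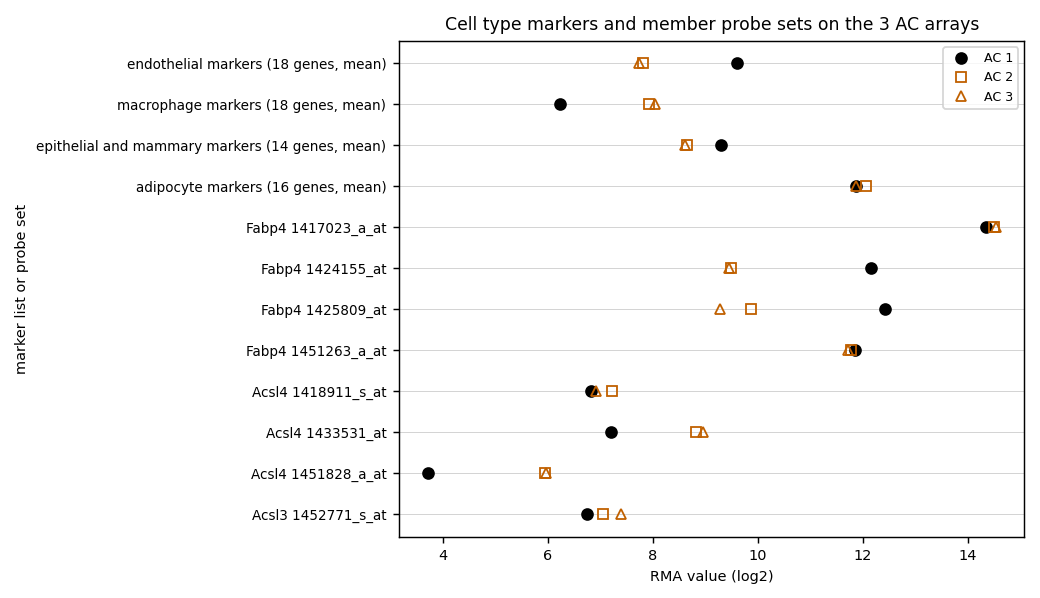
Log2 RMA values on the 3 AC arrays for the mean of 4 marker lists and for the probe sets of Fabp4, Acsl4 and Acsl3 that were not at background level in AC, with replicate 1 filled in black. Replicate 1 lies to the right of the other arrays for the endothelial markers and 2 Fabp4 probe sets, and to the left for the macrophage markers and 2 Acsl4 probe sets. It also lies to the right for the epithelial and mammary markers and to the left for the Acsl3 probe set 1452771_s_at.

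Most other members of these families were not seen above background. Of 13 measured relatives in the Fabp, Slc27a, Acsl and Acsbg families, none exceeded background level in AC and 11 did not in DFAT cells either, among them the liver and intestinal forms Fabp1 and Fabp2 and the transporters Slc27a2, Slc27a3 and Slc27a5. By the test 2 were higher and 2 were lower, beside 22.6% and 23.8% of all genes. The 2 lower ones, Fabp9 and Fabp12, were at background level in both groups. The exceptions were Acsbg1, an acyl-CoA synthetase of the bubblegum type known from brain and steroid-producing tissue, and Fabp7, the brain form of the binding proteins. Acsbg1 rose from 5.36, 4.82 and 4.67 in AC to 7.99, 7.86 and 7.87 in DFAT cells (adjusted p = 1.08e-05 from limma), at least 3.77-fold against the background level. Fabp7 was 2.76, 2.91 and 3.14 in AC against 5.83, 5.73 and 5.47 in DFAT cells (adjusted p = 6.07e-06 from limma), of which the replicate 1 array alone exceeded the background level, so the bound was 1.17-fold.
In fat, lipoprotein lipase frees fatty acids from triglyceride in circulating lipoproteins, held at the capillary wall by GPIHBP1 and inhibited by ANGPTL4. Of 10 measured genes of this supply, 7 were lower, 1 was higher and 2 did not pass the test, with a median log2 difference of -1.73, beside 23.8% lower and 22.6% higher among all genes. Of the 7, Apoc2 and Apoc3 were at background level in both groups. Gpihbp1, an endothelial gene, fell from 12.46, 10.18 and 10.59 to background level, at least 39.8-fold, and at least 24.6-fold without the array of AC replicate 1, where it was highest. Angptl8 and Angptl4 act on lipoprotein lipase as inhibitors. Angptl8 was at background level in DFAT cells and at least 6.31-fold lower there, and Angptl4, above background in both groups, had a log2 difference of -2.88. Lpl itself, named after its values were seen, fell from 14.25 ± 0.03 to 12.31 ± 0.12 (SD, n = 3 each), and the receptor Lrp1, likewise, was the gene that rose, by a log2 difference of 1.36.
Of 6 genes for other membrane proteins linked to uptake, 4 were lower and 1 was higher, with a median of -1.11, where 23.8% of all genes were lower and 22.6% higher. Cav2 and Cav1, the caveolins of the plasma membrane, had log2 differences of -2.15 and -1.43. Got2, the mitochondrial aspartate aminotransferase that was also described as a fatty acid binding protein of the plasma membrane, rose from 9.08 ± 0.15 to 10.77 ± 0.17 (SD, n = 3 each, adjusted p = 6.41e-05 from limma).

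**Figure D5:**
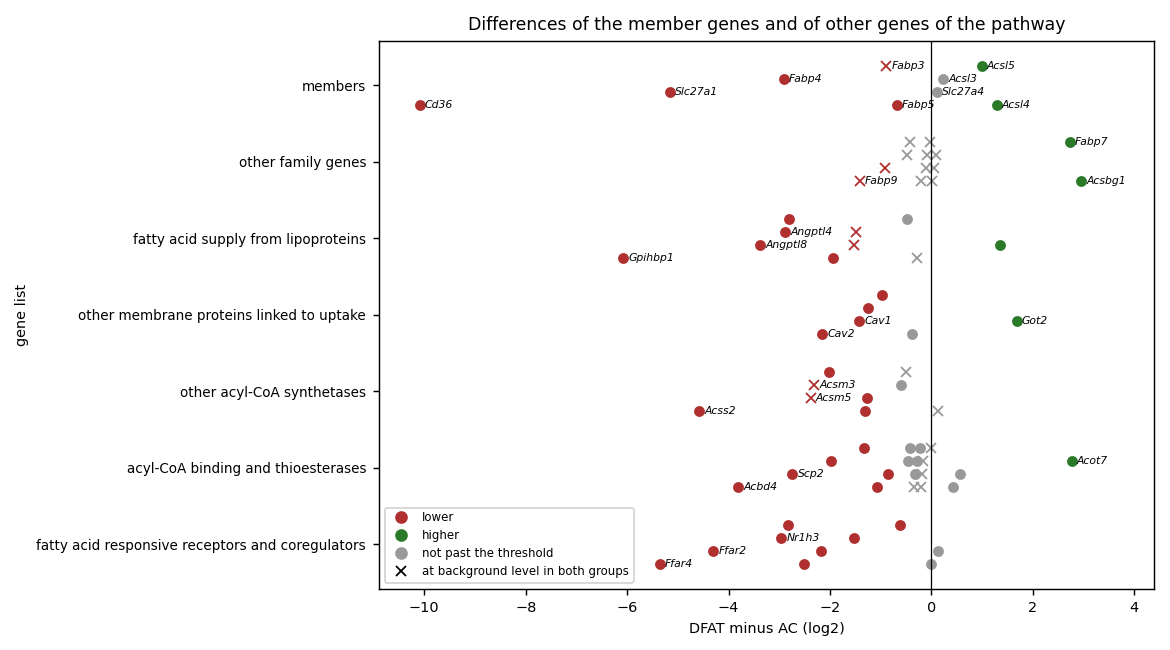
Log2 difference between DFAT cells and AC for the 9 measured members and for the genes of 6 further lists, 1 point per gene, coloured by the call, with crosses for genes at background level in both groups. The members span -10.09 (Cd36) to 1.29 (Acsl4), and most other genes of the same families are crosses near 0.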

How the data were processed

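AC and DFAT cells were compared on 3 arrays each, grouped by the sample titles. The authors normalized the CEL files with RMA in the R package affy (of unnamed version) and deposited log2 values, so the background correction, normalization and probe summary of RMA were already done, and array medians still differed. It is unknown whether other arrays shared that normalization. No detection calls were used.

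Of 45037 probe sets tested, without 64 controls, 34945 have 1 symbol in the platform annotation, 932 several and 9160 none. Limma 3.58.1 in R 4.3.3 (lmFit and eBayes, two-sided, threshold 0.05 after Benjamini-Hochberg adjustment across the whole table) was used with no filter, and the step was tested on simulated data. The probe set of highest average signal over both groups represented its gene. Pairs were tested by exact permutation in scipy 1.17.1. The members, gene lists, tests and alternatives were chosen with earlier results of these data known. Named were all members and, for each other list, the 3 genes with the largest difference that passed the test with groups apart, and other genes as examples or exceptions, chosen after their values were seen. Alternatives were other scalings, a floor and a filter at the background level, other variance settings, weights for arrays and a t-test with equal variances. Further ones were a fold rule, a replicate block, other probe set rules and percentiles, and leaving out each array. The study used Student's t test for its assays and not for the arrays. Its fold rule is at least 4-fold in its results but is written as >log2 2 in its methods. A log2 difference of at least 2 was used here. Number of arrays limits the precision.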

Additional observations from a re-analysis of the deposited data

How the results depend on the processing

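The falls of Cd36, Fabp4 and Slc27a1 kept their direction and passed the threshold under each of 19 alternatives, with log2 differences of -10.48 to -7.22, -3.92 to -2.45 and -5.55 to -4.30. The 5 genes lower in DFAT cells became 3 with centring on the hybridization controls. They also became 3 by the study's fold rule, taken as a log2 difference of at least 2 with no test. They became 4 with the floor and 4 with the filter at the background level, in each case without Fabp3. The 2 genes higher became 1 after a further quantile normalization, 1 when centred on the reference genes and 1 with the t-test. Each time this was through Acsl4 (adjusted p of 0.0563 and 0.0729 from limma, and 0.176 from the t-test). The 2 genes higher became 0 by the fold rule. They became 3 when probe sets ending in _x_at or _s_at were left out, through Acsl3 at a difference of 0.99 (adjusted p = 0.0332 from limma). Leaving out 1 array at a time gave 5 genes lower in each case and 1 to 2 higher, and 2 to 4 probe sets of the members higher in place of 4, fewest without any one of the DFAT arrays. The 4 probe sets higher became 1 when centred on the reference genes and 0 by the fold rule. The difference of Slc27a4 turned to -0.069 after quantile normalization and -0.28 with the reference genes, and ranged from -0.0036 to 0.19 without 1 array (AC replicates 1 and 3), and that of Acsl3 turned to -0.16 with the reference genes. With the hybridization controls they were 0.58 and 0.70. In the further lists, 33 of 67 genes were lower and 5 higher, where 23.8% and 22.6% of all genes were. The list counts became 53 lower when centred on the reference genes, and 17 lower and 3 higher by the fold rule. The share of calls that were higher, over all probe sets, was 52.9%, and 63.0%, 21.7% and 78.5% when centred on the array medians, the reference genes and the hybridization controls. Of 7 pairs, 5 had groups that did not overlap, against 3 when the probe sets of a gene were averaged or those ending in _x_at or _s_at were left out, 6 with the floor and 7 without AC replicate 1. Fabp3 minus Fabp5 turned to 0.064 with averaged probe sets and to 0.45 with the floor, where Fabp3 took the background level of each array. Acsl4 minus Acsl5 ranged from -0.29 without AC replicate 1 to 0.59 without AC replicate 3. With the 90th percentile as the background level, 0 members were at background level in AC in place of 1. The cause of these changes was not tested, except that the fold rule asks for a larger difference. No pairing by replicate number was seen, as deviations of arrays with the same number correlated at -0.03 to 0.01. Such correlations cannot exclude that AC and DFAT arrays shared an animal or a culture. With the replicate number as a block 5 members were lower and 2 higher.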

Other observations

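Of 10 measured genes for receptors and regulators that respond to fatty acids, 8 were lower in DFAT cells and none was higher (limma, adjusted p under 0.05), beside 23.8% and 22.6% of all genes. Ppard, at a difference of 0.14, and Rxrb did not pass the test. Ffar4, a receptor of long-chain fatty acids on the cell surface, went from 8.91, 8.95 and 8.90 in AC to 3.46, 3.52 and 3.72 in DFAT cells, at least 8.93-fold lower against the background level. Ffar2, which binds short-chain fatty acids, was at background level in DFAT cells and at least 12.6-fold lower there, and Nr1h3, the liver X receptor alpha, fell by 2.96. Rxra, the partner of the PPARs, named after its values were seen, stayed above background and fell by 0.61.

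Of 9 measured synthetases outside the Acsl family 6 were lower and none was higher, beside 23.8% and 22.6% of all genes. Acss2, which activates acetate in the cytosol, had a log2 difference of -4.58 (11.55 ± 0.12 against 6.97 ± 0.03, SD, n = 3 each, adjusted p = 1.72e-07 from limma). Acss1, named after its values were seen, exceeded the background level on 1 AC array alone, so its bound was 1.22-fold. Acsm3 and Acsm5 were also called, with differences of -2.31 and -2.38, but were at background level in both groups. Of 19 genes for acyl-CoA binding proteins and thioesterases, 6 were lower and 1 was higher, a share lower that is near the 23.8% of all genes. Acbd4 and the sterol carrier protein Scp2 had log2 differences of -3.81 and -2.74. The exception was Acot7, the thioesterase known best from brain, which rose from 8.77, 8.49 and 8.52 in AC to 11.32, 11.37 and 11.39 in DFAT cells (adjusted p = 2.11e-06 from limma).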
